A study of Bos taurus with 15 samples.

Results

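Genes of Schwann cells, the glia of peripheral nerves, were followed in subcutaneous adipose tissue of dairy cows. The 8 listed genes were SOX10, PMP22, MBP, NGFR, ERBB3, CDH19, PRX and GFAP. The members were taken as the entries of the 6 comparison tables whose gene symbol equalled a listed symbol. Of the 8 listed symbols, 7 were found in all tables, among 13896 genes in the whole series, and PRX was not analysed here. The genes had been selected on the exonic and whole gene differences of these same comparisons, so their values are given as a description, with no test.

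The tissue was a biopsy of the dewlap fat of primiparous Prim Holstein cows, taken through a skin incision, and 15 RNA libraries fell into 5 groups of 3. The first group was taken at -4 weeks peripartum (wkpp), before the diets began. From that time cows were fed a low or a high energy diet. Cows on the low energy diet had severe negative energy balance (SNEB), cows on the high energy diet had moderate negative energy balance (MNEB), and each was taken at 1 and 16 wkpp. The cows had been picked for the most extreme energy balance at 1 wkpp, which limits how far they stand for their diets. The labels do not say which libraries of different weeks came from the same cow. Sample titles also carry a tag, m1 or m2, that is the same within a group and whose meaning is not given in the sources used here.

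Schwann cells wrap axons, either as a myelin sheath around a large axon or as a thin cover around several small ones, and fat is crossed by nerves of both kinds. SOX10 is the transcription factor that defines and maintains the lineage and switches on myelin genes. SOX10 is also known from melanocytes and from some gland epithelia. In bulk tissue, fewer Schwann cells and less RNA per Schwann cell cannot be told apart.

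Values are whole reads per library, solved from the mean counts of the tables and divided by a size factor that corrects for depth. They are called normalised counts, exonic unless stated, and levels are not compared between genes because no gene lengths were used. The tables do not name the libraries of a group, so these are called deepest, middle and shallowest by size factor, and values are given in that order. Solved exonic reads ranged from 6594096 to 12401546 in the 9 libraries of -4 wkpp and SNEB, but from 1787950 to 6466391 in the 6 MNEB libraries. Synthetic spike-in RNA took 0.0623 to 0.496% of exonic reads in the former and 0.910 to 7.00% in the latter, over the 78 of 92 spike-ins whose reads were solved. Depth here means solved reads. The paper lists about as many total reads for MNEB libraries as for the others, but a smaller share of them aligned. Depth and spike-in share therefore moved with every contrast of MNEB against other libraries, and their part in the results cannot be told apart from that of energy balance. The adipocyte genes CIDEC, a lipid droplet protein, and LIPE, the hormone-sensitive lipase, were at 734 or more and 1968 or more in every library of this adipose tissue.

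SOX10 levels differed widely between the libraries of a single group. Its level was 70.8, 14.1 and 43.9 at -4 wkpp. In SNEB cows it was 167, 15.7 and 24.8 at 1 wkpp and 20.3, 22.7 and 34.2 at 16 wkpp. In MNEB cows it was 57.3, 521 and 129 at 1 wkpp and 60.6, 71.9 and 179 at 16 wkpp. A single library stood high in both groups at 1 wkpp: the deepest SNEB library held 80.5% of its group's summed SOX10 level and the middle MNEB library 73.7%. The highest library of a group exceeded the lowest 10.7-fold in SNEB and 9.08-fold in MNEB at 1 wkpp, against 1.69-fold in SNEB and 2.95-fold in MNEB at 16 wkpp. The reads behind these levels ran from 23 to 309 a library.

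ERBB3 is the receptor through which Schwann cells and their precursors receive neuregulin from axons. Its level was 224, 36.1 and 162 at -4 wkpp. In SNEB cows it was 337, 49.3 and 73.8 at 1 wkpp and 53.5, 76.6 and 46.5 at 16 wkpp. In MNEB cows it was 130, 766 and 239 at 1 wkpp and 195, 131 and 390 at 16 wkpp. In 4 of 5 groups the library highest in SOX10 was also highest in ERBB3: the deepest at -4 wkpp, the deepest SNEB and the middle MNEB library at 1 wkpp, and the shallowest MNEB library at 16 wkpp. In SNEB at 16 wkpp SOX10 was highest in the shallowest and ERBB3 in the middle library.

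CDH19 is a cadherin of Schwann cell precursors and of mature glia. It was at 68.5, 18.95 and 63.5 at -4 wkpp. In SNEB cows its level was 91.35, 11.8 and 37.9 at 1 wkpp and 20.3, 31.9 and 25.2 at 16 wkpp. In MNEB cows its level was 58.4, 121 and 51.4 at 1 wkpp and 90.0, 113 and 160 at 16 wkpp. Its highest library in SNEB at 1 wkpp exceeded the lowest 7.77-fold, and at 16 wkpp the 3 MNEB libraries lay within 1.78-fold.

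GFAP is an intermediate filament, known in nerves from Schwann cells that do not make myelin. It had the widest spread of the members. Its level was 74.8, 8.56 and 41.1 at -4 wkpp. SNEB libraries were at 165, 8.96 and 10.5 at 1 wkpp and at 14.0, 31.2 and 38.1 at 16 wkpp. MNEB libraries were at 10.4, 210 and 66.1 at 1 wkpp and at 30.3, 23.1 and 97.5 at 16 wkpp. At 1 wkpp the highest library was 18.4 times the lowest in SNEB and 20.2 times in MNEB, and GFAP rested on as few as 9 reads in a library.

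MBP is a protein that compacts the myelin sheath. Its level was 357, 141 and 162 at -4 wkpp. SNEB libraries were at 1200, 296 and 122.8 at 1 wkpp and at 280.1, 285 and 358 at 16 wkpp. MNEB libraries were at 212, 1103 and 209 at 1 wkpp and at 207, 206 and 300.5 at 16 wkpp. Again the deepest SNEB and the middle MNEB library at 1 wkpp stood apart, with 74.15 and 72.4% of their group's sum, while the 3 libraries of either diet at 16 wkpp lay within 1.46-fold.

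PMP22 is a membrane protein of compact myelin that many other cells also make. Its level was 2091, 1854 and 1429 at -4 wkpp. SNEB libraries were at 2412, 1633 and 1199 at 1 wkpp and at 1805, 1805 and 1418 at 16 wkpp. MNEB libraries were at 612, 2004 and 514 at 1 wkpp and at 1278, 1074 and 1207 at 16 wkpp. The same 2 libraries were again the highest of their groups at 1 wkpp, but only 2.01-fold above the lowest in SNEB and 3.90-fold in MNEB.

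NGFR is the low-affinity neurotrophin receptor, strong in immature and non-myelinating Schwann cells and present in other stromal cells. Its level was 131, 150 and 94.4 at -4 wkpp. SNEB libraries were at 100, 119 and 44.4 at 1 wkpp and at 67.6, 53.3 and 129 at 16 wkpp. MNEB libraries were at 77.1, 113 and 69.7 at 1 wkpp and at 71.4, 28.3 and 124.5 at 16 wkpp. The deepest SNEB library at 1 wkpp, high for the other 6 members, was not the highest of its group for NGFR, and the groups overlapped in all 6 comparisons.

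**Figure D1:**
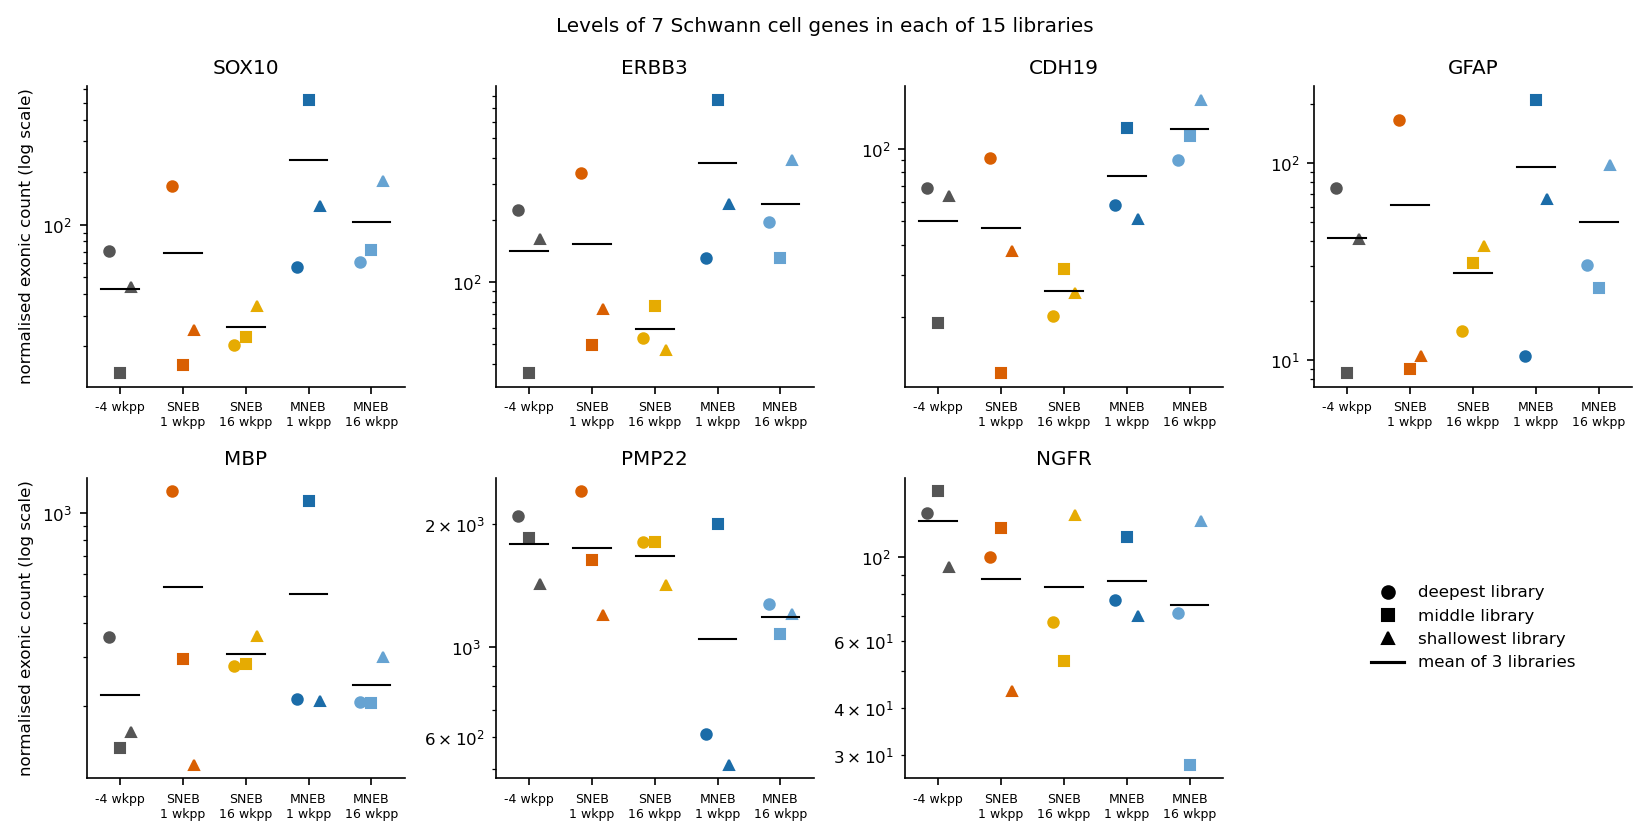
Normalised exonic counts (vertical axis, log scale) of the 7 members in each of 15 libraries, by group on the horizontal axis. Marker shape gives the depth rank of a library within its group and the bar is the mean of 3 libraries. For SOX10, ERBB3, GFAP and MBP, 1 SNEB and 1 MNEB library at 1 wkpp stand far above the other 2 of their group, whereas NGFR does not follow them.

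The pooled SD within groups, on the log2(normalised count + 1) scale, was 1.25 for SOX10, 1.66 for GFAP, 1.14 for ERBB3, 1.03 for MBP and 0.87 for CDH19. For PMP22 it was 0.55 and for NGFR 0.69. The median over 12054 genes was 0.38, and 99.0% of these genes had a smaller spread than GFAP, 93.4% a smaller one than SOX10 and 68.1% a smaller one than PMP22.

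After the mean of each group was subtracted, GFAP, ERBB3, CDH19 and MBP ran closely with SOX10 across the 15 libraries. Pearson's r with SOX10 was 0.97 for GFAP, 0.94 for ERBB3, 0.87 for CDH19 and 0.86 for MBP, against 0.63 for PMP22 and 0.32 for NGFR. Without that subtraction r was 0.87 for GFAP, 0.96 for ERBB3, 0.85 for CDH19, 0.64 for MBP, -0.09 for PMP22 and 0.10 for NGFR. These are descriptions over 15 libraries that differ in depth and spike-in share, with 2 outlying libraries at 1 wkpp, and every gene was read in the same libraries. Between members other than SOX10, r within groups was highest for ERBB3 with GFAP at 0.94 and lowest for NGFR with CDH19 at -0.03.

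**Figure D2:**
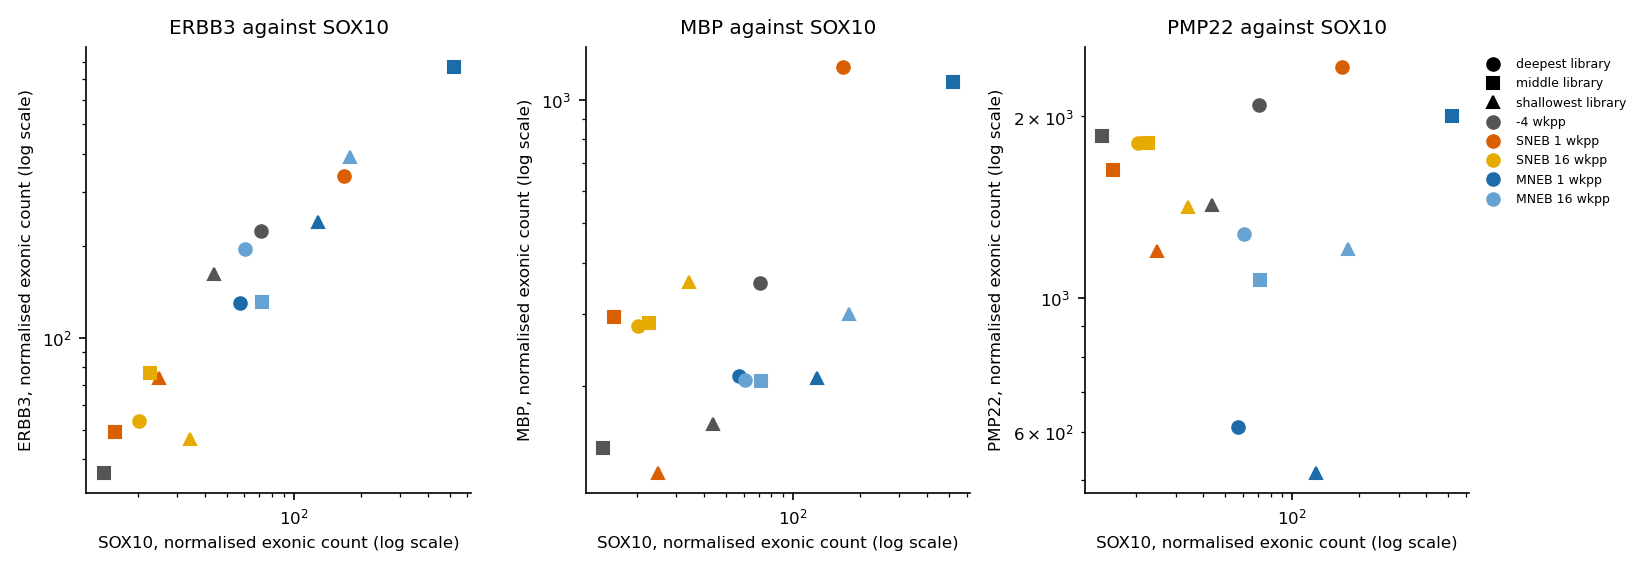
Normalised exonic counts of ERBB3, of the myelin gene MBP and of PMP22 (vertical axes, log scale) against SOX10 (horizontal axes, log scale), 1 point per library, coloured by group and shaped by depth rank. ERBB3 runs with SOX10 over all libraries (r = 0.96 on the log2 scale), MBP less closely (r = 0.64) and PMP22 not (r = -0.09).

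Other Schwann genes, 38 in number, had been listed for comparison, and 28 of them were found. S100B is a calcium-binding protein of Schwann cells that adipocytes also make. Its level ranged from 1084 to 1555 at -4 wkpp, from 735 to 1148 in SNEB at 1 wkpp, from 489 to 835 in SNEB at 16 wkpp, from 301 to 556 in MNEB at 1 wkpp and from 200.4 to 327 in MNEB at 16 wkpp. The 3 MNEB libraries of either week all lay below the 3 SNEB libraries of that week, and its highest library exceeded its lowest by at most 1.85-fold in any group. Its r with SOX10 was -0.29 over 15 libraries and 0.57 within groups.

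Within groups, 15 of the 28 other Schwann genes (53.6%) had an r with SOX10 of at least 0.8, against 82 of 12053 genes (0.680%). The median r was 0.82 for these genes and 0.01 for all genes. Among them were the myelin genes MAG, PMP2, NCMAP and DRP2 and the glycolipid enzymes UGT8 and FA2H, named here after their values were seen.

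Most like SOX10 over the 15 libraries, among 8970 genes with a mean normalised count of at least 50 and with the members left out, were 10 genes. SORCS1, a sorting receptor, came first with r = 0.94, followed by GRIK3, a kainate receptor subunit (0.94), and ABCC8, the sulphonylurea receptor (0.93). The others were ADAMTS20 (0.93), GRIK2 (0.92), L1CAM (0.92), ANK3 (0.91), ARHGEF16 (0.90), CLCN2 (0.90) and ITGB8 (0.90). Within groups, r lay between 0.85 for CLCN2 and ARHGEF16 and 0.94 for SORCS1 and ITGB8. SORCS1, L1CAM and ITGB8 were also in the list of other Schwann genes, and the median r of the compared genes was -0.07. SORCS1 was at 12.9 to 59.5 in SNEB and 36.5 to 453 in MNEB libraries at 1 wkpp, and its highest MNEB library was again the middle one.

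Whole gene reads include introns. The exonic share of SOX10 lay between 48.7 and 82.4%, and its whole gene change of SNEB over MNEB at 16 wkpp was -1.87 ± 0.45. CDH19 was mostly intronic, with 9.86 to 25.3% of its whole gene reads on exons, and ERBB3 mostly exonic, with 70.6 to 91.1%. For MBP the share differed between libraries. In the deepest SNEB library at 1 wkpp, 53.65% of 4138 MBP reads were exonic (95% Wilson interval 52.1 to 55.2), against 20.7% in the middle and 13.2% in the shallowest library of that group. In the middle MNEB library at 1 wkpp the share was 28.9% (26.6 to 31.3), against 17.5% (15.4 to 19.8) in the deepest and 21.2% (16.7 to 26.5) in the shallowest. At -4 wkpp the share was 30.6, 20.1 and 15.7%, highest in the deepest library, which also had the most SOX10. At 16 wkpp the share ran from 16.0 to 25.85% in SNEB and from 21.6 to 31.9% in MNEB. The intervals cover counting error only, and reads are not independent molecules.

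**Figure D3:**
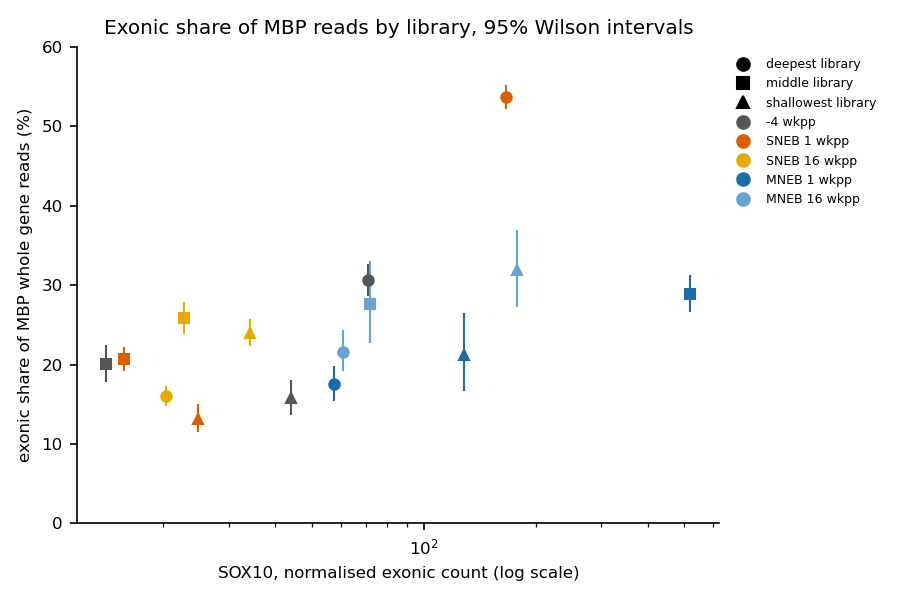
Exonic share of MBP whole gene reads in percent (vertical axis, bars are 95% Wilson intervals) against the normalised SOX10 count (horizontal axis, log scale), 1 point per library. The deepest SNEB library at 1 wkpp, at 53.65%, lies above all others, which run from 13.2 to 31.9%.

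The 6 comparisons asked how the tissue differed between weeks within a diet and between diets at 1 and 16 wkpp. Log2 fold changes are from limma on exonic reads, first group over second, with their standard error. A call needed an adjusted p below 0.01 in the exonic and in the whole gene fit with the same sign. These comparisons chose the members, so how many of them met this rule, or had separate groups, is given beside the share of all genes as a description, and nothing is read from it.

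From -4 to 1 wkpp in SNEB cows, 0 of 7 members were called, against 0% of all genes. The log2 fold change of -4 over 1 wkpp was -0.25 ± 0.93 for SOX10, -0.03 ± 0.83 for ERBB3 and -0.81 ± 0.77 for MBP. Without the deepest SNEB library at 1 wkpp these were 0.83, 0.84 and 0.09. Without the middle library at -4 wkpp they were 0.49, 0.84 and -0.50, so leaving out either library turned the sign of SOX10 and ERBB3. None of the 7 members had groups that did not overlap, whereas 19.1% of all genes did. In the same contrast with MNEB cows, which shares the -4 wkpp libraries, the change was -1.85 ± 0.80 for SOX10, -1.25 ± 0.72 for ERBB3 and 1.06 ± 0.42 for PMP22. Without the middle MNEB library it was -1.02 for SOX10 and -0.55 for ERBB3, without the middle -4 wkpp library -1.13 and -0.44, and without the deepest MNEB library -2.94 and -2.03. Again 0 of 7 members were called, against 0.572% of all genes, and 0 of 7 had separate groups, against 41.7%.

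From 1 to 16 wkpp, no member was called in SNEB, where the background was 0%, or in MNEB, where it was also 0%. The log2 fold change of 1 over 16 wkpp was 0.71 ± 0.86 for SOX10 in SNEB and 0.66 ± 0.75 in MNEB. Without the deepest SNEB library at 1 wkpp it was -0.37, and without the middle MNEB library at 1 wkpp it was -0.21. MBP turned from 0.22 to -0.68 in SNEB and from 0.62 to -0.14 in MNEB when the same libraries were left out. No member had groups that did not overlap in either diet, and all genes did so in 11.8% of cases in SNEB and 18.8% in MNEB.

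Between diets at 1 wkpp, the fitted change of SNEB over MNEB was -1.58 ± 0.96 for SOX10, and its groups overlapped. The change moved to -0.78 without the middle and -2.70 without the deepest MNEB library, to -2.68 without the deepest and -0.91 without the middle SNEB library, and to -1.86 with the deepest SNEB and the middle MNEB library both left out, an alternative chosen after seeing the data. The change was -1.21 ± 0.78 for ERBB3, -0.98 ± 0.73 for CDH19, -0.34 ± 1.31 for GFAP, 0.04 ± 0.85 for MBP and -0.01 ± 0.46 for NGFR. Leaving out each library in turn moved ERBB3 between -2.09, without the deepest SNEB library, and -0.51, without the middle MNEB library. CDH19 moved between -1.74, without the deepest SNEB library, and -0.19, without the middle one. The value was 0.99 ± 0.47 for PMP22. The sign of MBP changed in 7 of 13 alternatives, and that of GFAP in 3. No member was called, against a background of 0%, and 0 of 7 had separate groups, against 37% of all genes.

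Between diets at 16 wkpp, the highest library of a group exceeded the lowest by less than at 1 wkpp for all 7 members in SNEB and for 6 of 7 in MNEB. NGFR was the exception in MNEB, at 4.41-fold against 1.62-fold at 1 wkpp. SOX10, ERBB3 and CDH19, expressed by Schwann cells with and without myelin, were each higher in all 3 MNEB than in all 3 SNEB libraries. The log2 fold change of SNEB over MNEB was -1.72 ± 0.43 for SOX10, -1.85 ± 0.36 for ERBB3 and -2.11 ± 0.33 for CDH19, which is 3.28-fold, 3.61-fold and 4.30-fold. Leaving out each library in turn kept SOX10 between -2.18 and -1.37, ERBB3 between -2.09 and -1.57 and CDH19 between -2.41 and -1.93. The 2 myelin protein genes among the members had values of the other sign: MBP was at 0.43 ± 0.21 and PMP22 at 0.50 ± 0.17. Myelin genes outside the members were mixed, as 2 named after their values were seen show. MAG was at 2.60 to 7.96 in SNEB and 12.85 to 46.0 in MNEB libraries, and PMP2 at 22.35 to 85.2 and 10.3 to 35.2. PMP22 was higher in all 3 SNEB libraries on exons, but its change was 0.05 on whole gene reads. GFAP was at -0.62 ± 0.56 and NGFR at 0.23 ± 0.50.

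At 16 wkpp 1 of 7 members, CDH19, met the rule for a call, as did 2.93% of all genes, a count that is no test of CDH19. In 4 of 7 members the groups did not overlap, against 40.6% of all genes. The 3 MNEB libraries at 16 wkpp had 2450133 to 6466391 solved exonic reads and 1.01 to 2.85% spike-in, against 9710610 to 12401546 and 0.0623 to 0.187% in SNEB.

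**Figure D4:**
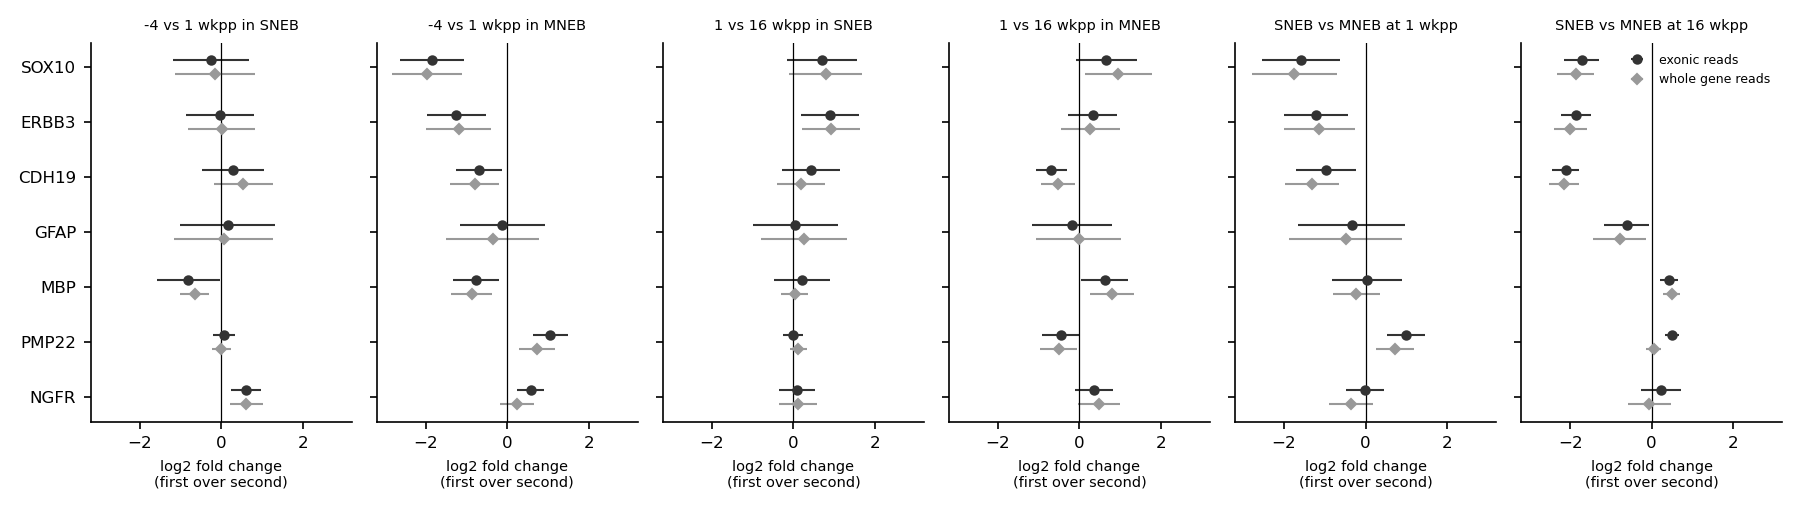
Log2 fold changes (horizontal axes, first group over second) of the 7 members in 6 comparisons, from exonic reads (circles) and whole gene reads (diamonds), with bars of 1 standard error. Only SNEB against MNEB at 16 wkpp shows short bars well to the left of 0, for SOX10, ERBB3 and CDH19, with MBP and exonic PMP22 to the right.

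The other Schwann genes were tested as the design allows, by limma with Benjamini-Hochberg adjustment over all genes. At 16 wkpp, 1 of 27 tested genes was called, against 2.93% of all genes. It was LGI4, a secreted protein that Schwann cells need to ensheath axons. LGI4 was at 93.5, 98.6 and 130 in SNEB and at 350.1, 367 and 441 in MNEB libraries, from the lowest to the highest. The MNEB libraries were all above the SNEB libraries, with a log2 fold change of -1.83 ± 0.20 (limma adjusted p = 0.00074 on exons and 0.0056 on whole genes). The call was lost when any 1 of the 6 libraries was left out, and in the fit of all 15 libraries. S100B was at 1.16 ± 0.27 (limma adjusted p = 0.015 on exons and 0.11 on whole genes), which did not pass the threshold. The median change was 0.27 for the list and 0.01 for all genes, with 15 genes above 0 and 12 below.

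In the other 5 comparisons limma called 0 of 27 or 28 genes of this list. At an unadjusted p below 0.05 in both fits, 4 of 28 passed from -4 to 1 wkpp in MNEB, against 2598 of 11879 genes in all, and 5 of 28 in SNEB, against 1057 of 11586. From 1 to 16 wkpp, 1 of 28 passed in MNEB, against 755 of 11443, and 1 of 27 in SNEB, against 478 of 11394. Between diets, 1 of 28 passed at 1 wkpp, against 1920 of 11542, and 8 of 27 at 16 wkpp, against 2667 of 11340. Groups did not overlap for 9 of 27 genes at 16 wkpp, 4 higher in SNEB and 5 in MNEB, against 40.6% of all genes. The difference between diets in the change from 1 to 16 wkpp was also fitted, and limma called 0 of 127 listed genes other than the members, of which 2 had an unadjusted p below 0.05 in both fits.

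Of 20 listed genes of the neuregulin and neurotrophin pathways, which carry signals between axons and Schwann cells, 14 were found. NTRK3, the receptor of neurotrophin 3, was at 67.1 to 98.0 in SNEB and 339 to 412 in MNEB at 16 wkpp. Its log2 fold change was -2.23 ± 0.21 (limma adjusted p = 0.00043 on exons and 0.0035 on whole genes), and it was the 1 of 11 tested genes called in that comparison, against 2.93% of all genes. Groups did not overlap for 6 of these 11 genes, 4 higher in SNEB and 2 in MNEB, against 40.6% of all genes. NTRK2, the receptor of brain-derived neurotrophic factor, fell from 2222 to 3179 at -4 wkpp to 469 to 642 in MNEB at 1 wkpp, a change of -4 over 1 wkpp of 2.31 ± 0.23 (limma adjusted p = 0.00014 on exons and 0.0082 on whole genes). NTRK2 was the 1 of 13 tested genes called there, against 0.572% of all genes, and limma called 0 genes of this list in the other 4 comparisons, where 0 to 3 had an unadjusted p below 0.05 in both fits. In SNEB at 1 wkpp NTRK2 was also below its -4 wkpp level, at 1175 to 2133. At 16 wkpp it was at 1216 to 2087 in SNEB and 631 to 791 in MNEB. An unadjusted p below 0.05 in both fits was found for 3 of 11 genes of the list between diets at 16 wkpp, against 2667 of 11340 over all genes, and for 4 of 13 from -4 to 1 wkpp in MNEB, against 2598 of 11879. Over all genes it was found for 478 of 11394 to 1920 of 11542 in the other 4 comparisons. NRG1, the axonal ligand of ERBB3, was at 0 to 18.4 in all libraries, too low to compare.

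Genes of axons were read as well. TH, the noradrenaline-making enzyme of sympathetic fibres, was at 149 to 189 at -4 wkpp, 46.4 to 163 in SNEB at 1 wkpp and 106 to 146 in SNEB at 16 wkpp. In MNEB it was at 26.1 to 43.2 at 1 wkpp and 7.71 to 65.0 at 16 wkpp. TH was lower in the 3 MNEB than in the 3 SNEB libraries of either week, with a log2 fold change at 16 wkpp of 1.81 ± 0.53 (limma adjusted p = 0.040 on exons and 0.090 on whole genes). UCHL1, a general neuronal protein, was at 15.4 to 138 over all libraries. By limma 0 of 11 to 13 tested axon genes were called in each of the 6 comparisons, against 0 to 2.93% of all genes. An unadjusted p below 0.05 in both fits was found for 2 of 11 axon genes between diets at 16 wkpp, against 2667 of 11340 over all genes, and for 2 of 13 from -4 to 1 wkpp in MNEB, against 2598 of 11879, TH among them in both. In the other 4 comparisons it was found for 0 or 1 axon genes.

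Markers of other cells that can hold SOX10 or reach a biopsy were read in the same libraries. The melanocyte genes DCT, TYR and MLANA, which make or shape pigment, were at or below exonic levels of 13.5, 14.7 and 3.74 in every library. Their whole gene levels were uneven. TYR was at 535 and 653 on the whole gene scale in the middle and shallowest MNEB libraries at 1 wkpp, against 6.43 in the deepest and 1.08 to 3.52 in SNEB at 1 wkpp. DCT was at 172 and 186.5 on that scale in the same pair of MNEB libraries, against 3.21 in the deepest and 1.18 to 4.79 in SNEB at 1 wkpp. The middle one is also the library of its group highest in SOX10. The summed exonic level of 8 melanocyte genes, which include KIT and EDNRB, made by other cells too, was 2375 to 3607 in SNEB and 1081 to 2030 in MNEB libraries. The gland keratins KRT8 and KRT18 moved with the members: KRT8 was at 482 in the deepest SNEB and 186 in the middle MNEB library at 1 wkpp, against 92.7 to 110 and 14.6 to 22.0 in the other libraries of these groups. The summed level of 11 gland epithelium genes was 174 to 1010 in SNEB and 72.9 to 504 in MNEB at 1 wkpp, and 196 to 342 in SNEB and 84.8 to 178 in MNEB at 16 wkpp, so that at 16 wkpp it was lower in MNEB, where SOX10 was higher. Their part in the result was not tested.

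The epidermal keratins KRT5 and KRT14 were highest in the shallowest MNEB library at 1 wkpp, at 91.8 and 95.4, and at or below 20.2 and 16.2 in all others. The summed level of 18 keratinocyte and hair genes was 854 to 1994 at -4 wkpp, 396 to 928 in SNEB and 176 to 976 in MNEB libraries. The sum of 6 smooth muscle genes was 23240 to 68450 in MNEB and 5035 to 16600 in SNEB libraries at 16 wkpp. The sum of 11 skeletal muscle genes was 1182 to 4122 in MNEB and 114 to 345 in SNEB libraries, with ACTA1 and CKM, the defining actin and creatine kinase, at or below 94.4 and 4.89. The sum of 7 endothelial genes was 10620 to 29110 over all libraries, and that of 8 lymphocyte genes 522 to 1744 in MNEB and 2993 to 6947 in SNEB libraries. Adipocyte genes, 5 with solved reads, summed to 7426 to 9333 in SNEB and 3027 to 11690 in MNEB at 16 wkpp, and 3 fibroblast genes to 22990 to 27730 and 10600 to 16020. Between diets at 16 wkpp limma called KIT among 4 tested melanocyte genes, SMTN among 6 smooth muscle genes and CR2 and PTPRC among 8 lymphocyte genes, against 2.93% of all genes. From -4 to 1 wkpp in MNEB it called PDGFRA among 3 fibroblast genes and CIDEC among 4 adipocyte genes, against 0.572% of all genes. These genes were named after their values were seen. In the keratinocyte, gland, skeletal muscle and endothelial lists limma called 0 genes in all 6 comparisons. From -4 to 1 wkpp in SNEB, 11 of 16 tested keratinocyte genes had an unadjusted p below 0.05 in both fits, against 1057 of 11586 over all genes. In that comparison 11 were higher in all libraries at -4 wkpp than in any at 1 wkpp, the groups of 19.1% of all genes did not overlap, and the median log2 fold change of the list was 3.73, against -0.01 over all genes. From 1 to 16 wkpp in SNEB, 4 of 6 tested endothelial genes had one, against 478 of 11394 over all genes. In the other comparisons and lists of these 4 it was found for 0 to 3 genes. In the lists with a call, it was found for 5 of 6 smooth muscle genes between diets at 16 wkpp, against 2667 of 11340 over all genes. All 6 were lower in SNEB in that fit. From -4 to 1 wkpp in MNEB it was found for 4 of 4 adipocyte genes, against 2598 of 11879. Elsewhere in these lists it was found for 0 to 3 genes. The part of these cells in the results was not tested.

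**Figure D5:**
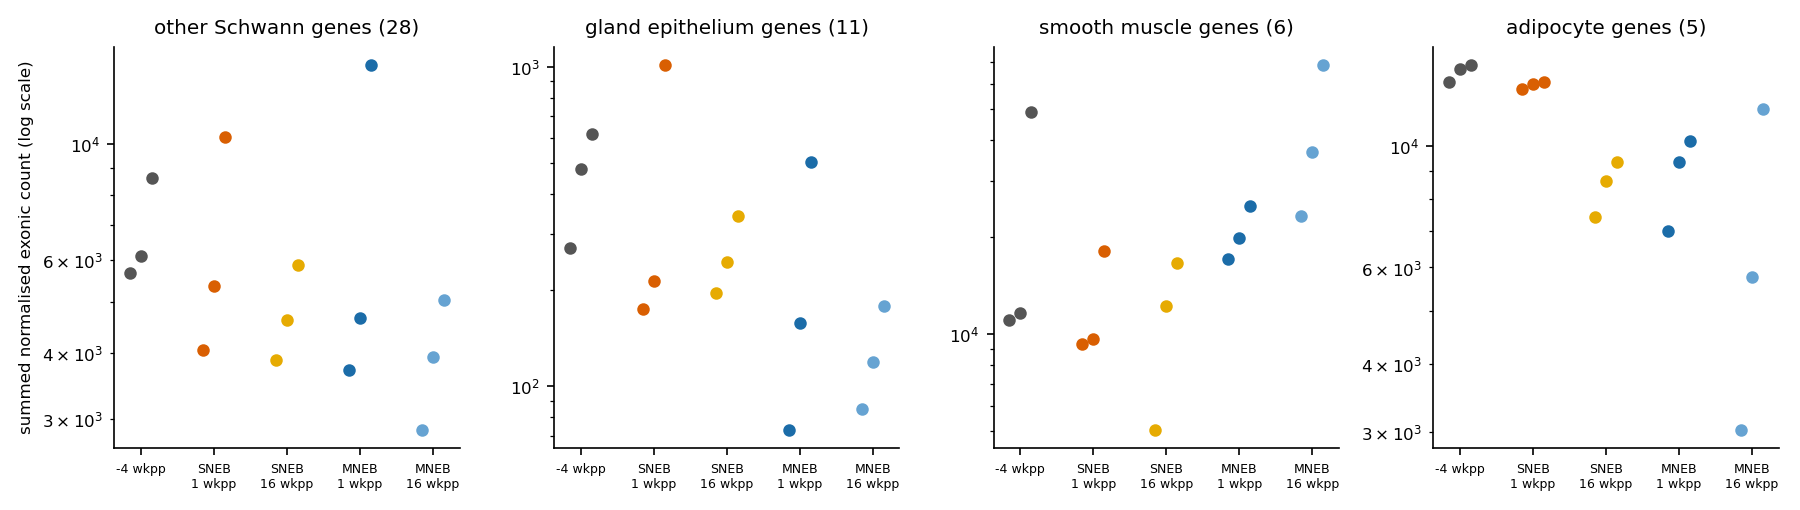
Summed normalised exonic counts (vertical axes, log scale) of 28 other Schwann genes, 11 gland epithelium genes, 6 smooth muscle genes and 5 adipocyte genes in each library, the 3 libraries of a group drawn from lowest to highest. One SNEB and 1 MNEB library at 1 wkpp stand apart in the Schwann and gland panels, at 10290 and 14090 and at 1010 and 504.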

How the data were processed

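RNA of dewlap adipose tissue was sequenced in 15 libraries, 3 in each of 5 groups. Stranded libraries were processed by the authors: adapters were removed (Cutadapt 1.3), reads were placed on bosTau8 (TopHat2), and htseq-count counted them per gene, on exons and on whole genes. The 6 deposited tables hold, for each of 13988 entries (13896 genes and 92 spike-ins), the mean over 6 libraries of counts that the authors divided by DESeq2 size factors, written with 15 significant digits. The tables also hold the authors' own log2 fold changes, standard errors, statistics and p-values, which were not used. No column belonged to other samples (0 columns).

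A mean over 6 libraries is a sum of whole reads times weights that the libraries share between tables. The weights were read from genes with few reads, and the whole reads of the 15 libraries were solved for each entry by lattice reduction (sympy 1.14.0), with every mean up to 20000 met within 5e-15 of its value. Larger entries have more than 1 solution and were left out, which left 13839 genes on exons and 13728 on whole genes. Size factors computed from the solved reads by the median of ratios differed from the weights by at most 0.088% on exons and 0.65% on whole genes, and simulated counts solved in the same way were right in 800 of 800 cases for either kind of reads. The design had foreseen this step. Libraries of a group cannot be tied to single samples.

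Solved reads were fitted with limma 3.58.1 (voom, lmFit, eBayes) in R 4.3.3 for the 6 libraries of each comparison, with the authors' size factors, on genes with at least 10 reads. A call needed a Benjamini-Hochberg adjusted p below 0.01 in both fits with the same sign. The p-values measure the spread between 3 libraries of a group. Levels use size factors over all 15 libraries. Fits were tested on simulated data. The alternatives were other fits, normalisation, filters and call rules, and leaving out each library.

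Named were all members, and of other Schwann genes those called between diets (at most 12) with S100B and a few others whose results are not reported here. Of pathway and axon genes, those called (at most 6) were named, with NRG1, NTRK2, TH and UCHL1. The 10 genes most like SOX10 in log2(normalised count + 1) and at most 3 defining genes of other lists were named too. The members and lists were chosen with earlier results of these data known.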

Additional observations from a re-analysis of the deposited data

How the results depend on the processing

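The count of other Schwann genes called rested on few calls. At 16 wkpp between diets it was 1 as reported, 2 on exons alone, 3 at an adjusted p below 0.05 in both fits and 0 in a fit of all 15 libraries, and leaving out each library gave 0 to 0. At 1 wkpp between diets it was 0, and 0 to 2 when a library was left out, the 2 arising without the deepest MNEB library. From -4 to 1 wkpp in MNEB it was 1 on exons alone and 0 otherwise. In the other 3 comparisons it was 0 under all alternatives run. The cause was not tested, apart from the smaller number of libraries where one was left out.

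Of the 511 alternative values of the 42 member changes, 59 had the other sign than the reported value. None of these was for the 1 called change, that of CDH19 between diets at 16 wkpp. By less than the spread between libraries moved 508, and by more moved 3. These 3 were GFAP without the deepest MNEB library at 1 wkpp (-2.06 from -4 to 1 and 1.69 from 1 to 16 wkpp) and PMP22 on whole gene reads at 16 wkpp (0.05). Leaving out 1 of 3 libraries moves a plain group mean by less than that spread by construction, so these counts do not measure stability. The sign of SOX10, ERBB3 and CDH19 between diets held in the 13 alternatives at 1 wkpp and the 12 at 16 wkpp. At 16 wkpp the groups of these genes did not overlap, so leaving out a library could not turn the sign. The genes had also been chosen on these comparisons. From -4 to 1 wkpp in SNEB the sign of ERBB3 changed in 5 of 12 alternatives. No paired analysis was possible because the groups share no replicate numbers and the tables name no library. Solved reads were fewest in MNEB, where GFAP, NGFR and CDH19 rest on 9 to 92 reads in a library.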
